A study of Rattus norvegicus with 6 samples.

Results

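The granins Chga, Chgb, Scg2 and Scg3, the endocrine granule protein Resp18 and the calcium sensor Scgn were followed as 1 set of 6 genes, chosen by name from the 32883 genes of the deposited matrices, and all 6 were measured in every library. Their UMI counts were read in alpha, beta, PP and delta cells, and also in cells of other kinds, where free RNA of islet cells would be counted too. A UMI is a molecular tag, so that 1 UMI stands for 1 captured transcript, and a level is given in CPM, the UMIs of a gene for every 1000000 UMIs of the summed cells. The rule that picks them uses their names and no measured value, although the set was drawn up with earlier results of these data known.

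The 6 libraries were droplet single-cell libraries (10x, 3' end) of pancreatic cells released from isolated islets of male Wistar rats, with 2 rats in each of 3 groups. The young rats were 2 months old and on a normal diet, whereas from that age the old rats ate a normal diet and the HFHF-old rats a high-fat high-fructose diet for 18 months, to an age of 20 months. The strain, the sex and the islet isolation were shared by all 3 groups, and each library is labelled as 1 rat. Between 77387928 and 166875258 UMIs were present per library, and 75201 of 78024 cell barcodes were kept; any pair of libraries shared between 20 and 69 barcode sequences.

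Granins are acidic proteins of the dense-core secretory granules of endocrine cells and neurons. They aggregate with calcium in the trans-Golgi network, take part in sorting prohormones into granules, and several are themselves cut into bioactive peptides, such as pancreastatin from chromogranin A and secretoneurin from secretogranin II. In the islet they are stored and released with insulin, glucagon, pancreatic polypeptide and somatostatin, and chromogranin A is used as a marker of endocrine cells.

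Promoter sequences of 3 of the genes are shown. Chgb and Resp18 were taken for the largest log2 fold changes between islet cell types, and Scg2 because it holds the cyclic AMP response element. For Resp18 this was 1.91 in delta against beta cells, with delta cells of 1 rat. Among alpha, beta and PP cells the largest value of Resp18 was 1.00, below 1.21 for Chga. Each line has 300 bases of the gene's own strand, 5' to 3', from 250 bases before to 50 bases after the annotated start, from RefSeq on build GRCr8, and the capitals mark the motif TGACGTCA. Chgb lies on the plus strand at chr3:140496462-140496761, Scg2 on the minus strand at chr9:88256817-88257116 and Resp18 on the minus strand at chr9:84220137-84220436.
Chgb: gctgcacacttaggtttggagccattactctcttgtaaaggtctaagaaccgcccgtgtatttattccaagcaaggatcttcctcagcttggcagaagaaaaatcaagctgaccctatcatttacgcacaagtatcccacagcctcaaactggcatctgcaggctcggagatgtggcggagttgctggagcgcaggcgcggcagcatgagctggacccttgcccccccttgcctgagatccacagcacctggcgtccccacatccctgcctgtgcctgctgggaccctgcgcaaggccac
Scg2: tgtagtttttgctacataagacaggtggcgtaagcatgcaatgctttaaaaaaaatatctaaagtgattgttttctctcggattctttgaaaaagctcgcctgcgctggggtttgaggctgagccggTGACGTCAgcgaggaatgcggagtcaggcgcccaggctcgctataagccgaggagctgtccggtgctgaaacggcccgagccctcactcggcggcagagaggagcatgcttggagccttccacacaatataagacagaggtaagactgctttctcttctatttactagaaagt
Resp18: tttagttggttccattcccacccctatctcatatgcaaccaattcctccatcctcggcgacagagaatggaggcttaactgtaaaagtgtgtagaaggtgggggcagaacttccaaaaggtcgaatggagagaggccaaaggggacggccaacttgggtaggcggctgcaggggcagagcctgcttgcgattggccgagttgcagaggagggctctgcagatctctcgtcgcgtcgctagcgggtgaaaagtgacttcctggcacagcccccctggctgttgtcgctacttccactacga
Promoters were listed for 5 of the 6 genes, Chga being the exception. TGACGTCA, which is its own reverse complement so that a search on both strands gives 1 hit, was found in 1 of these 5, in Scg2 at base -123 from the start, and in 612 of 33469 promoters of the same length (1.83%). The match is a description of the letters and was not tested for binding. The matrices were aligned by the submitters to an older build, Rnor_6.0, so the coordinates apply to the printed sequence alone.

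Islet cells were defined as cells with at least 10% of their UMIs from Ins1, Ins2, Gcg, Ppy, Pyy and Sst, and named by the most abundant hormone family. In total 8445 cells met this rule: 1916 alpha, 5152 beta, 1335 PP and 42 delta cells. The names were checked with other markers in the 5 rats that had all of alpha, beta and PP cells. Among alpha, beta and PP cells, Iapp, Mafa, Pdx1, Nkx6-1 and Slc2a2 were highest in beta cells in 5 of 5 rats. Irx2 and Ttr were highest in alpha cells in 5 of 5, and Etv1 in PP cells in 5 of 5. Gc, an alpha cell marker, was highest in PP cells in 4 of 5 rats, and Isl1, listed for PP cells, was highest in alpha cells in 5 of 5. Delta cells were left out of this ranking. In young 1, young 2, old 1, old 2 and HFHF-old 1, Iapp was at 3057, 4329, 4132, 1828 and 2925 CPM in delta cells. In beta cells it was at 1315, 532, 2234, 685 and 746. Pdx1 was at 76.8, 156.6, 154.5, 160.6 and 151.0 in delta and 85.8, 20.9, 76.3, 104.5 and 179.9 in beta cells. Markers of other cells were present in the sums as well. In beta cells the summed lymphocyte-like markers ran from 6.64 to 282 CPM over the 5 rats and the macrophage-like from 179.9 to 2356. The fibroblast-like ran from 71.4 to 679.8 and the endothelial-like from 2.00 to 73.0. A selection left out cells holding 3 or more marker UMIs of another class, or at least 10% enzyme UMIs. With it, 0 of 18 mean levels of the 6 genes moved by over 1 SD. The SD over rats was wide, as at 707 on a mean of 1026 CPM for Chgb in alpha cells, so large shifts can stay within it. The count of calls between islet cell types given below was then 9 in place of 12. Of the beta cells, 31 of 138, 159 of 3105, 99 of 436, 621 of 1197 and 36 of 272 were kept in the same order of rats. In that selection no rat kept 10 delta cells, so no delta comparison was made. HFHF-old 1 kept only 3 alpha and 8 PP cells, so its alpha and PP sums were left out too. The counts 9 and 12 therefore do not cover the same comparisons and rats. No marker gene of these lists was at 0 across the summed alpha, beta or PP cells.

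Several libraries stood apart. HFHF-old 2 held only 2 alpha and 4 beta cells and no PP or delta cell, so it entered no test, and every HFHF-old value in a comparison comes from HFHF-old 1. In young 2 the beta class counted 3105 cells, of which 84.5% had less than 80% of their hormone UMIs from insulin. Its alpha and PP classes were mixed too, with 43.8% and 47.7% of cells under 80% from their own hormone family. Acinar enzymes made up 1.64% of its alpha, 1.71% of its PP and 5.76% of its beta UMIs. In old 1 acinar enzymes made up 5.47% of the beta UMIs, whereas the share was between 0.0418% and 0.387% in the other 3 tested rats. Beta and PP cells of old 2 were shallow, with medians of 1750 and 1631 UMIs. A strict selection (at least 80% of hormone UMIs from 1 family, at least 2000 UMIs, under 10% enzyme UMIs), chosen after the data had been seen, is therefore given beside the results.

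Chga encodes chromogranin A, a precursor of pancreastatin and vasostatin. In alpha cells its level was 2177 and 1259 CPM in the young rats, 1451 and 711 in the old rats, and 919.9 in HFHF-old 1. In beta cells it was 738, 357, 722, 318 and 390.0 in the same order, and in PP cells 3983, 2223, 2753, 1525 and 1797. PP cells were above alpha cells and alpha cells above beta cells in every rat, and the ranges of PP and beta cells did not overlap. The means were 1304 ± 567 in alpha, 505 ± 207 in beta and 2456 ± 972 in PP cells (SD, n = 5 rats).

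Chgb, which encodes chromogranin B, showed the widest spread between cell types. It was at 665, 677, 827, 674 and 2285 CPM in alpha cells and at 98.4, 136, 193, 165 and 236 in beta cells, in the same order of rats. In PP cells it reached 1779, 2551, 3298, 1599 and 6044. Alpha cells lay above every beta value without overlap, PP cells above every beta value without overlap, and PP cells above alpha cells within each of the 5 rats. The means were 1026 ± 707, 166 ± 52.7 and 3054 ± 1802 CPM in alpha, beta and PP cells (SD, n = 5 rats).

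Scg2, the precursor of secretoneurin, was at 1879, 1281, 1182, 1115 and 2749 CPM in alpha cells, 656, 222, 670.1, 607 and 1071 in beta cells, and 3014, 2294, 2788, 1551 and 3488 in PP cells. In CPM the order was again PP, alpha, beta within each rat, and HFHF-old 1 had the highest value in all 3 types. With hormone UMIs left out of the total, beta cells of young 1 were higher, at 2553 against 2522 in HFHF-old 1. Scg3 encodes secretogranin III, which binds chromogranin A and cholesterol-rich granule membrane. Its levels were 955, 774, 961, 678 and 976 in alpha cells, 243, 124, 279.7, 240.2 and 424 in beta cells, and 695, 763, 1021, 479 and 1013 in PP cells. Alpha and PP cells were alike in their range, and both lay above the whole range of beta cells.

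Resp18, regulated endocrine-specific protein 18, is a luminal protein of endocrine granules. It was at 6797, 8062, 8001, 9106 and 7073 CPM in alpha cells, 1296, 2563, 1660.3, 2613 and 1814 in beta cells, and 4271, 7027, 6968, 8936 and 5553 in PP cells. Here alpha cells were the higher ones in CPM, above PP cells in 5 of 5 rats, and beta cells lay below both without overlap. Scgn encodes secretagogin, a cytosolic EF-hand calcium sensor and not a granule cargo. Its levels were low, 204, 116, 123, 122 and 194 in alpha cells, 70.7, 23.0, 50.3, 70.7 and 129 in beta cells, and 182, 91.5, 130.1, 85.8 and 133 in PP cells, and the ranges of the 3 types overlapped.

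**Figure D1:**
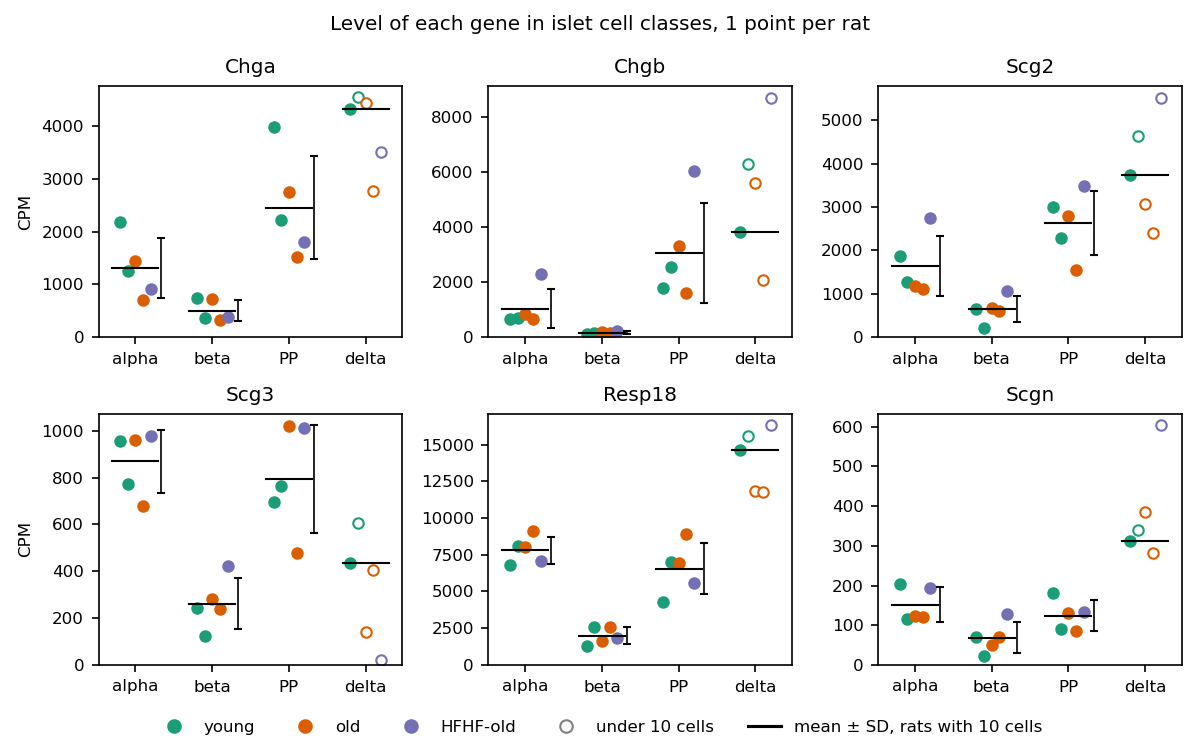
Level of each gene (CPM, linear axis from 0) in alpha, beta, PP and delta cells, with 1 point per rat coloured by group; open points are rats with fewer than 10 cells, and the line and bar give the mean ± SD over rats with at least 10 cells. Beta cells hold the lowest mean of all 6 genes among alpha, beta and PP cells, and Chgb in PP cells runs from 1599 to 6044 against 98.4 to 236 in beta cells.

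Delta cells were rare, with 18, 9, 5, 7 and 3 cells in young 1, young 2, old 1, old 2 and HFHF-old 1, so only young 1 was tested. Resp18 was nevertheless at 14617, 15581, 11856, 11755 and 16342 CPM in these cells, above every alpha, beta and PP value of the tested rats. Scgn was at 311, 340.3, 386, 283 and 604, also above all of them. Chgb was at 3825, 6283, 5599.7, 2065 and 8681, and Chga at 4332, 4547, 4428, 2769 and 3510.0. Scg3 was at 434, 606, 142, 405 and 18.9 CPM, below alpha and PP cells of the same rat in 5 of 5 rats. In CPM it was above beta cells in 3 of 5. The last value is 1 UMI in 3 cells, with an exact Poisson interval from 0.478 to 105. Scg2 was at 3741, 4635, 3064, 2401 and 5529. Poisson intervals here and below are at 95% and cover counting error only. With hormone UMIs left out of the total, Resp18 in delta cells was at 17936, 20103, 14535, 16301 and 18624. On that scale the delta cells of old 2 lay below the alpha (16772) and PP cells (16859) of the same rat. Scgn was then at 382, 439, 473, 392 and 688, still above every alpha, beta and PP value. Scg3 was then at 533, 782, 174, 562 and 21.5 in delta cells and at 946, 201, 771, 833 and 999 in beta cells. On that scale it was above beta cells in young 2 only.

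The level in beta cells depends on what it is divided by, as a median of 28.0% to 66.2% of a beta cell's UMIs came from hormone genes, against 21.1% to 40.9% in alpha cells. In CPM all 6 genes were higher in alpha than in beta cells in 5 of 5 rats, and so were 52.4% of all 14047 genes tested. All 6 were also higher in PP than in beta cells in 5 of 5 rats, as were 53.2% of all genes. With hormone UMIs left out of the total, 4 of the 6 were higher in alpha cells in every rat, against 21.7% of all genes. On that scale Chgb was at 884, 1079, 1472, 1241 and 3116 in alpha cells and at 383, 221, 533, 572 and 556 in beta cells, still without overlap. Scgn was then higher in alpha cells in 2 of 5 rats and Scg2 in 3 of 5, so for these 2 genes the direction depended on the scale. Scg2 and Resp18, whose alpha and beta ranges did not overlap in CPM, overlapped on that scale, while Chgb and Scg3 still did not. For PP against beta cells Chga, Scg3 and Resp18 now overlapped, while Chgb and Scg2 still did not. The share of all genes without overlap between cell types was not counted. For Resp18 the median fold within a rat went from 3.90 to 2.26 for alpha and from 3.30 to 1.86 for PP against beta cells, and alpha cells were above PP cells in 4 of 5 rats. For PP against beta cells, 5 of 6 genes remained higher in every rat without hormone UMIs, against 21.3% of all genes, the exception being Scgn. For PP against alpha cells Chga, Chgb and Scg2 were higher in every rat on both scales (3 of 6, against 11.7% of all genes in CPM and 12.9% without hormone UMIs).

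The types were then compared with edgeR's quasi-likelihood test on counts summed per rat and type, with the rat as a block, over all 14047 genes. TMM normalisation was used, which sets the scale from the bulk of the genes so that insulin does not lower all others, and a call required a fold of over 1.5 together with a p under 0.05 after Benjamini-Hochberg adjustment over all genes. In alpha against beta cells 3 of the 6 genes were called higher and none lower, where 23.8% of all genes were called, 10.4% higher and 13.4% lower. Chgb was 2.72-fold higher (log2 fold change 1.45 ± 0.22 SE, edgeR adjusted p = 0.000409) and higher in 5 of 5 rats. Resp18 was 2.00-fold higher (1.00 ± 0.19, edgeR adjusted p = 0.00202), again in 5 of 5 rats. Scg3 was 1.69-fold higher (0.75 ± 0.23, edgeR adjusted p = 0.0288). For Chga the log2 fold change was 0.32 ± 0.20, for Scg2 0.32 ± 0.28 and for Scgn 0.23 ± 0.24, and none of these was called (edgeR adjusted p between 0.239 and 0.509). The median over the 6 genes was 0.54, against -0.07 over all genes. With library size alone in place of TMM the median of all genes moved to 0.91, 8048 genes were called higher and 327 lower in place of 1465 and 1882, and all 6 genes were called.

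In PP against beta cells 4 of the 6 genes were called higher and none lower, with 18.6% of all genes called, 8.44% higher and 10.1% lower. Chgb was 8.02-fold higher (3.00 ± 0.23, edgeR adjusted p = 4.4e-06), the largest difference among the 3 types for this set. Chga was 2.32-fold higher (1.21 ± 0.20, edgeR adjusted p = 0.000744), Scg2 2.00-fold higher (1.00 ± 0.28, edgeR adjusted p = 0.0212) and Resp18 1.59-fold higher (0.67 ± 0.19, edgeR adjusted p = 0.0231). Scg3 had a log2 fold change of 0.55 ± 0.23 and Scgn of -0.11 ± 0.25, and neither was called. The 6 genes had a median of 0.83, against -0.10 over all genes, and with library size alone 8134 genes were called higher and 308 lower in place of 1186 and 1420.

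Median hormone shares were 25.9% to 37.4% in PP and 21.1% to 40.9% in alpha cells, beside 28.0% to 66.2% in beta cells. Between PP and alpha cells the median of all genes was -0.00 with TMM and 0.03 with library size alone. Chgb was 2.94-fold higher in PP cells (1.56 ± 0.22, edgeR adjusted p = 0.000702) and Chga 1.86-fold higher (0.89 ± 0.20, edgeR adjusted p = 0.0133), both in 5 of 5 rats. These 2 of 6 stand beside 6.54% of all genes called, 3.07% higher and 3.47% lower in PP cells. Scg2 had a log2 fold change of 0.68 ± 0.27 and was not called (edgeR adjusted p = 0.192). Resp18 (-0.33 ± 0.19), Scg3 (-0.20 ± 0.23) and Scgn (-0.34 ± 0.24) had values below 0 that were not called either.

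**Figure D2:**
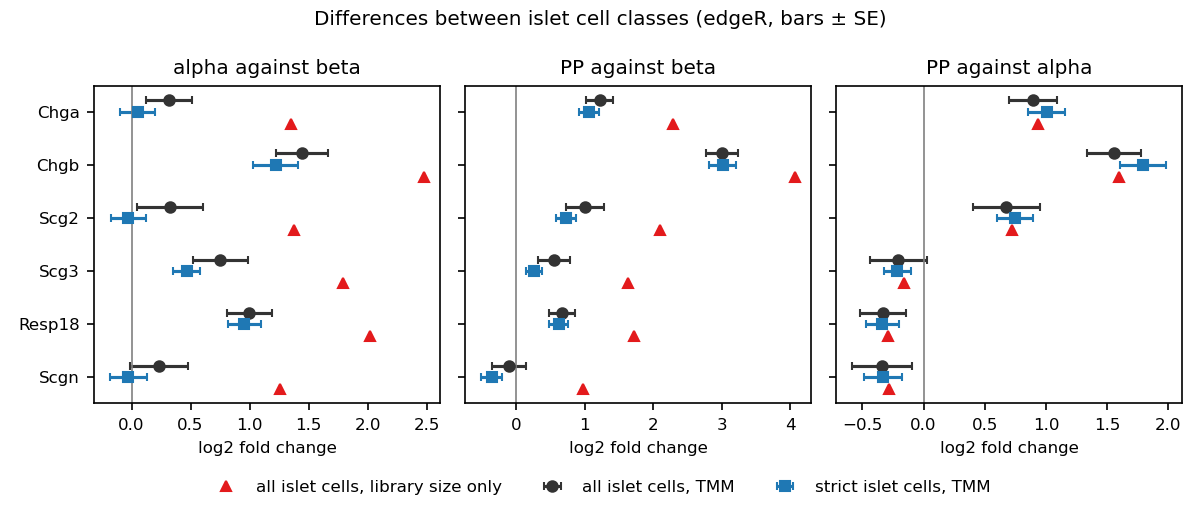
Log2 fold changes of the 6 genes between cell types: dots are all islet cells with TMM, squares the strict selection with TMM (both ± SE from edgeR), and triangles all islet cells scaled by library size alone. The TMM values of Chgb stay near 1.45 and 1.22 in alpha against beta cells and at 3.00 and 3.01 in PP against beta cells, whereas library size alone moves every gene to the right in both comparisons with beta cells.

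With the strict selection, which kept 88, 358, 122, 495 and 179 beta cells, Chgb had log2 fold changes of 1.22 in alpha against beta, 3.01 in PP against beta and 1.79 in PP against alpha cells. Resp18 was at 0.96 in alpha and 0.62 in PP against beta cells, Chga at 1.06 in PP against beta and 1.01 in PP against alpha cells, and Scg2 at 0.72 in PP against beta cells, all called by edgeR (adjusted p between 2.99e-08 and 0.00282). Scg2 was also called in PP against alpha cells (0.75, edgeR adjusted p = 0.00228, range over alternatives 0.00151 to 0.502). Scg3 in alpha against beta cells came to 0.47 (edgeR adjusted p = 0.00491, range 1.66e-05 to 0.363), under the fold limit, and Scg2 and Scgn came to -0.03 each. The share of all genes called is not given for this selection, here or for delta cells below, nor for fits without 1 rat. Over all alternatives, 834 to 8375 genes were called in alpha against beta cells. The range was 817 to 8442 in PP against beta and 140 to 1475 in PP against alpha cells.

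Not every call held when 1 rat was left out. The Scg3 call in alpha against beta cells was lost without young 1, young 2, old 1 or old 2 (log2 fold changes 0.88, 0.52, 0.75 and 0.79). For PP against beta cells the Resp18 call was lost without old 1, old 2 or HFHF-old 1 (0.68, 0.62 and 0.67), and the Scg2 call without young 1, old 1 or HFHF-old 1 (1.11, 1.11 and 1.05). The Chga call in PP against alpha cells was lost without young 1, old 2 or HFHF-old 1 (0.88, 0.85 and 0.84). Without young 2, Scg2 gained a call in PP against alpha cells (0.63) and Scg3 in delta against alpha cells (-1.35). The 3 Chgb calls among alpha, beta and PP cells held in all 20 alternatives. With free RNA subtracted they were the only calls left of 12. For this, the lowest mean UMIs per cell of a gene over lymphocyte-, macrophage-, fibroblast- and endothelial-like cells was subtracted per islet cell. It was taken gene by gene within each rat, so genes those cells express themselves were lowered too. Resp18 in young 1 was at 0.149 UMIs per lymphocyte-like cell, against 32.8 per beta and 81.9 per alpha cell. Why calls were lost was not tested.

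In delta cells, of which only young 1 was tested and is assumed to vary like the other sums, Chgb was 12.9-fold above beta cells (3.69 ± 0.38, edgeR adjusted p = 0.000432) and 4.72-fold above alpha cells (2.24 ± 0.39, edgeR adjusted p = 0.0109). Resp18 was 3.75-fold above beta cells (1.91 ± 0.34, edgeR adjusted p = 0.0122), a call that was lost without old 2 (1.90, edgeR adjusted p = 0.0505, range over alternatives 1.57e-14 to 0.407). In delta against beta cells 1.96% of all genes were called (1.37% higher), and in delta against alpha cells 1.47% (0.933% higher). Scg3 had log2 fold changes of -1.42 ± 0.49 against alpha and -0.67 ± 0.47 against beta cells, and neither was called. With the strict selection Scg3 was called lower in delta than in alpha cells (-1.25, edgeR adjusted p = 0.0103, range over alternatives 0.00906 to 0.607). In delta against PP cells edgeR called none of the 6, with Resp18 (1.24 ± 0.35) and Scg3 (-1.22 ± 0.49) at an unadjusted p under 0.05, beside 1.16% of all genes called. DESeq2 called Resp18 there and no other of the 6. It also called Resp18 in delta against alpha cells, where edgeR gave 0.91 ± 0.35 and no call (adjusted p = 0.291). The strict selection called Resp18 higher (1.25, edgeR adjusted p = 0.0133, range 5.48e-06 to 0.918) and Scg3 lower (-1.04, edgeR adjusted p = 0.0375, range 0.0341 to 0.675) in delta than in PP cells, and so did the fit without young 2 (1.26 and -1.09).

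The share of cells with at least 1 UMI was compared after thinning to equal total UMIs, of which beta cells keep fewer from non-hormone genes. Each cell was thinned to 2000 UMIs, which left out 571 of 1914 alpha, 1278 of 5148 beta and 547 of 1335 PP cells in the 5 tested rats. Chgb was then detected in 56.3% to 93.6% of alpha cells, 14.7% to 32.8% of beta cells and 74.4% to 99.1% of PP cells. In lymphocyte-like cells, which should lack the gene, the thinned share was 0.633% to 2.01%, with 463 of 7751 cells left out. Without thinning it was 63.8% to 96.7% in alpha, 32.1% to 67.3% in beta, 68.3% to 100% in PP and 1.20% to 6.50% in lymphocyte-like cells, whose median depths were 4759 to 24058, 1750 to 25650, 1631 to 19545 and 3246 to 8172.5 UMIs. Resp18 was found in 86.9% to 98.4% of thinned beta cells and in at least 99.7% of thinned alpha and PP cells. Outside the islet its thinned share was 3.69% to 12.1% in lymphocyte-like and 3.58% to 23.9% in macrophage-like cells. Scgn was found in 18.1% to 31.9% of thinned alpha, 4.18% to 23.6% of beta and 12.7% to 27.1% of PP cells, and in 0.116% to 0.364% of lymphocyte-like cells.

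**Figure D3:**
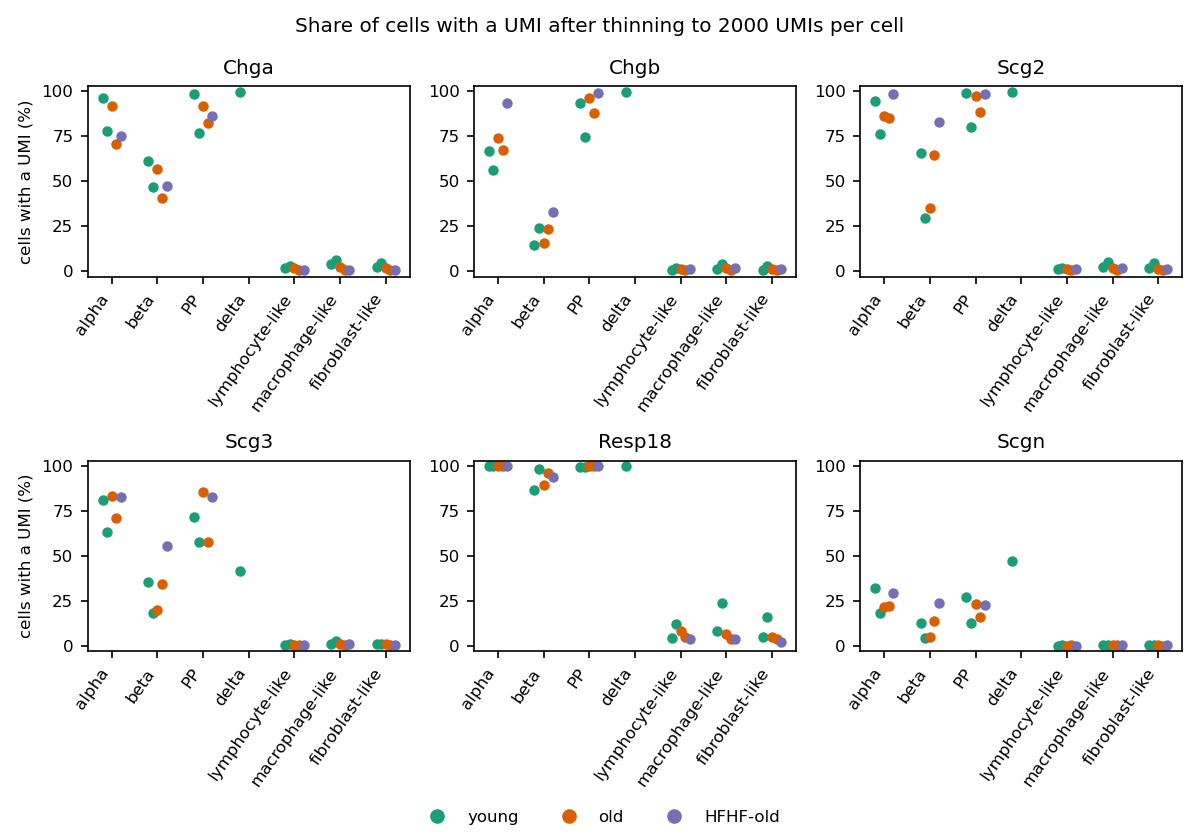
Share of cells with at least 1 UMI of each gene after thinning to 2000 UMIs (percent, 1 point per rat, coloured by group) in the 4 islet types and in 3 classes outside the islet; HFHF-old 2 is not drawn. Chgb separates beta cells, at 14.7% to 32.8%, from alpha and PP cells, while Resp18 is near its ceiling in all 4 islet types.

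The age comparison set old against young rats within each cell type. None of the 6 genes was called in alpha, beta or PP cells, where 0.0232%, 0% and 0.0184% of all genes were called. Chgb, which was at 665 and 677 in the young and 827 and 674 CPM in the old alpha cells, had log2 fold changes of 0.52 ± 0.49 in alpha, 0.88 ± 0.55 in beta and 0.20 ± 0.65 in PP cells. Resp18 had 0.56 ± 0.67, 0.45 ± 1.00 and 0.63 ± 0.73. Young and old rats overlapped for Resp18 in all 3 types, and for Chgb the overlap was found in alpha and PP cells but not in beta cells (98.4 and 136 against 193 and 165), where 25.3% of all genes tested did not overlap. With cells holding markers of other classes left out, the Chgb value turned to -0.14 in beta and -0.21 in PP cells. Scg2 in alpha cells did not overlap either, being lower in the old rats in CPM (1879 and 1281 against 1182 and 1115), with a log2 fold change of -0.05 ± 0.51 that was not called, beside 41.2% of all genes without overlap in alpha cells. In PP cells none of the 6 was free of overlap, against 22.1% of all genes. For Chga young 1 and old 1 were higher than their group mates in alpha, beta and PP cells alike, and the groups overlapped in all 3 types.

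The diet comparison set HFHF-old against old rats, with HFHF-old 1 as the single HFHF-old rat, assumed to vary like the other groups. Again none of the 6 genes was called in alpha, beta or PP cells, beside 0.0386%, 0% and 0.0184% of all genes. Chgb in HFHF-old 1 was the highest of the 5 rats in CPM in each type, at 2285 in alpha, 236 in beta and 6044 in PP cells. In beta cells of the strict selection, Chgb was higher in old 1, at 228 against 211 CPM in HFHF-old 1. With hormone UMIs left out of the total, Chgb in beta cells was higher in old 2, at 572 against 556 in HFHF-old 1. Its log2 fold change was 0.92 ± 0.58 in alpha (edgeR adjusted p = 0.614), -0.40 ± 0.67 in beta and 0.94 ± 0.77 in PP cells, and in beta cells it turned to 0.40 with library size alone, which moved the median of all genes from -0.02 to 0.77. In alpha cells the strict selection brought it to 0.15 (edgeR adjusted p = 0.934, range over alternatives 0.158 to 0.992), and kept 22 of the 30 alpha cells of that rat, 26.7% of which had less than 80% of their hormone UMIs from Gcg. Resp18 had log2 fold changes of -0.98 ± 0.85, -1.03 ± 1.28 and -1.01 ± 0.93 in alpha, beta and PP cells, and Chga -0.90 ± 0.68, -1.22 ± 1.18 and -0.63 ± 0.77. With library size alone these came to -0.27, -0.24 and -0.52 for Resp18 and to -0.23, -0.41 and -0.25 for Chga. Chgb came to 1.61 in alpha and 1.31 in PP cells, where the median of all genes moved to 0.63 and 0.43. Scg2 had log2 fold changes of 0.57 ± 0.61, -0.05 ± 1.15 and 0.30 ± 0.73 in alpha, beta and PP cells with TMM. Across both comparisons and 3 types, edgeR called 0 of 36 values, with 0 at an unadjusted p under 0.05 and the smallest adjusted p at 0.614, and DESeq2 called 0 of 36 with 2 at an unadjusted p under 0.05.

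Whether an effect of age or diet differed between cell types was tested as an interaction. None of 24 values was called by edgeR or DESeq2, and 0% of all genes was called by edgeR in each of these 4 comparisons. At an unadjusted p under 0.05 there were 2 values with each tool. In edgeR both belonged to Chgb, whose difference of HFHF-old against old was higher in alpha than in beta cells by 1.28 ± 0.53 and higher in PP than in beta cells by 1.33 ± 0.53 on the log2 scale, with an adjusted p of 1 for each in edgeR.

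**Figure D4:**
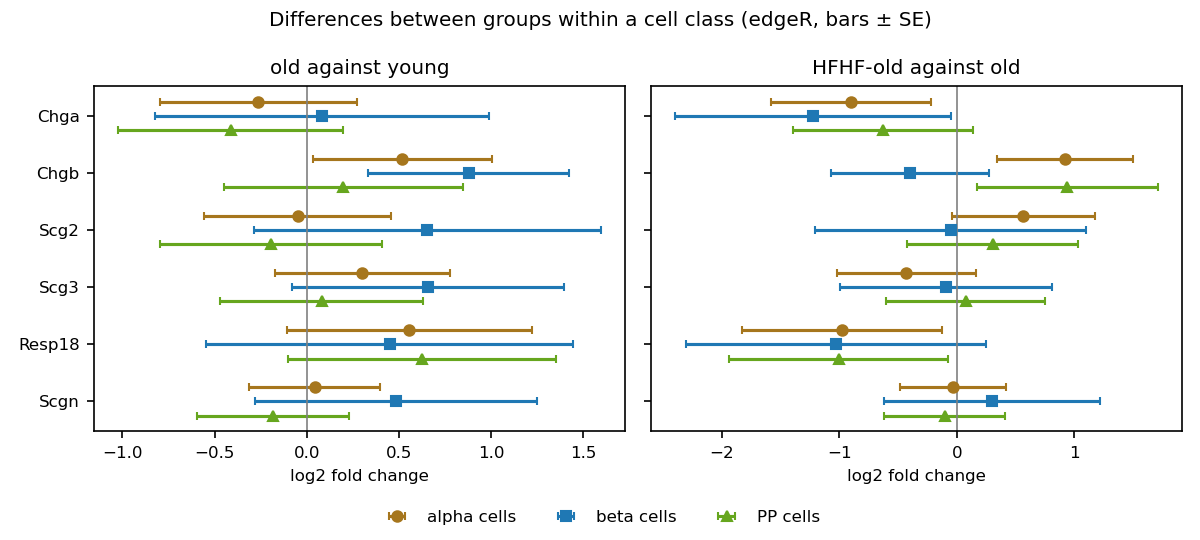
Log2 fold changes ± SE (edgeR with TMM) of the 6 genes for old against young rats and for HFHF-old against old rats, in alpha, beta and PP cells. No value passes the test, and the spread of values runs from -1.22 for Chga in beta cells to 0.94 for Chgb in PP cells, both for HFHF-old against old.

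In HFHF-old 2, the 4 beta cells held 39 Chga, 7 Chgb, 57 Scg2, 28 Scg3, 157 Resp18 and 12 Scgn UMIs of 90937. This gives 429 CPM for Chga (exact Poisson interval 305 to 586), 77.0 for Chgb (30.9 to 159) and 1726 for Resp18 (1467 to 2019), within the range of the other rats' beta cells for Chga and Resp18 and below it for Chgb, whose interval reaches into that range. Its 2 alpha cells held 38 Resp18 and no Scgn UMIs of 3167.

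The other genes of granule assembly and release were read from a list of 30, of which 26 were tested between cell types. In alpha against beta cells 6 were called higher and 5 lower, beside 10.4% and 13.4% of all genes, and in PP against beta cells 3 and 3, beside 8.44% and 10.1%. Pcsk1, the prohormone convertase that opens proinsulin, was lower in alpha than in beta cells (log2 fold change -6.35 ± 0.52, edgeR adjusted p = 6.65e-06) and lower in PP than in beta cells (-2.61 ± 0.43, edgeR adjusted p = 0.000769). Sytl4, the insulin granule protein granuphilin, was also lower in alpha (-7.70 ± 0.51) and PP cells (-6.33 ± 0.47), with 7 and 11 UMIs in the alpha and PP sums against 2016 in beta cells. Syt7, a calcium sensor of exocytosis, and Unc13a, a priming factor, were higher in alpha than in beta cells (1.29 ± 0.30 and 1.16 ± 0.26). Cadps, a factor of dense-core granule exocytosis, and Pam, which amidates peptides, were higher in PP than in beta cells (1.34 ± 0.30 and 1.20 ± 0.20).

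In PP against alpha cells 2 of the 26 list genes were called, Pcsk1 (3.74 ± 0.49) and Pam (0.95 ± 0.20), both higher in PP cells, beside 6.54% of all genes called. In delta cells of young 1, 3 list genes were called higher and 1 lower than in alpha cells (1.47% of all genes called), with Pcsk1 (5.46 ± 0.78) and Cadps2 (3.70 ± 0.65) leading, and 1 was called higher and 2 lower than in beta cells (1.96% of all genes called), where Nucb2, the nesfatin precursor, had 2.21 ± 0.31. Nucb2 was also the 1 list gene called higher than in PP cells (2.19 ± 0.32), with 1 called lower, beside 1.16% of all genes called. Rab27a, a small GTPase of granule docking, had 0 UMIs in the delta sum, which allows up to 11.5 CPM (3 counts in that sum), so within young 1 its level was at least 4.84-fold higher in alpha, 2.14-fold higher in beta and 4.77-fold higher in PP cells. Sytl4 also had 0 UMIs there and was at least 4.37-fold higher in beta cells of the same rat. Between the groups, 0 of the 26 list genes (25 in PP cells) were called by edgeR or DESeq2 in any type, with 2 at an unadjusted edgeR p under 0.05 in alpha cells for diet and 1 for age.

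Over the 16 sums of rat and type, the log2 level of the 6 genes moved together, with Pearson's r between 0.61 for Resp18 and Scgn and 0.91 for Chgb and Scg2. These sums share rats, depth and the weight of insulin in the beta sums, so r is a description. Among 2063 genes with a mean of at least 50 CPM, those most like Chgb were Itfg1 (r = 0.95), Ccpg1 (0.95) and Hexa (0.95), and those most like Resp18 were Trappc1 (0.98), Pfdn2 (0.97) and Dctn3 (0.96). Chga was most like Krt8 (0.90), Pam (0.89) and Tmed4 (0.89), and Scg2 most like Tbc1d23 (0.97), Tgoln2 (0.97) and 5330417C22Rik (0.96). For Scg3 the nearest genes were Maged1 (0.97), Peg3 (0.96) and Morf4l2 (0.96), and for Scgn they were Rassf3 (0.97), Camk2b (0.97) and Dnajc6 (0.97).

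Outside the islet classes there were 66756 cells, of which 17179 were lymphocyte-like. In the 5 rats with islet cells, lymphocyte-like cells held 18.3 to 63.8 CPM of Resp18, 4.47 to 13.8 of Chga, 3.16 to 9.52 of Chgb, 4.34 to 8.45 of Scg2, 2.08 to 4.60 of Scg3 and 0.542 to 1.75 of Scgn. All of these lay below the lowest islet sum of the same gene. In HFHF-old 2, with 6 islet cells in all, the 9428 lymphocyte-like cells held 5.70 CPM of Resp18, 0.412 of Chga and 0.0779 of Chgb. The level in lymphocyte-like cells was lowest in this library for all 6 genes, whereas Scgn in its fibroblast-like cells was at 1.32 CPM (13 UMIs), within the range of the other rats.

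Free RNA of 1 source would keep its genes in 1 ratio. The UMIs of each gene were therefore set against hormone UMIs, outside and inside the islet classes of the same rat. Where the UMIs outside came from was not tested. In young 1, young 2, old 1, old 2 and HFHF-old 1, islet cells held 11.9, 10.3, 7.50, 8.45 and 5.27 Resp18 UMIs per 1000 hormone UMIs. Lymphocyte-like cells held 15.5, 13.0, 15.6, 11.8 and 5.64 with all barcodes. They held 15.5, 13.0, 15.6, 7.66 and 5.64 with barcodes of 20 or more UMIs of the 6 genes left out. That limit was set after the data had been seen and takes out barcodes for holding these genes, so it can only lower their counts outside. Across acinar cells and 4 other classes in these rats, 121 of 150 ratios (80.7%) were within 2-fold of the islet ratio with all barcodes, and 131 of 150 (87.3%) without those. With all barcodes the medians over 25 ratios were 1.36 for Chga, 1.34 for Chgb, 1.07 for Scg2, 0.955 for Scg3, 1.09 for Resp18 and 1.67 for Scgn, and 21 of 150 ratios were above 2-fold. In macrophage-like cells of young 1 Chgb was at 11.3 UMIs per 1000 hormone UMIs with all barcodes and at 1.70 without those, against 1.78 in islet cells, and Chga at 11.9 and 5.46 against 5.001. Scgn had the widest range, 0 to 7.80 with all barcodes, and both ends rest on few counts. They were 0 UMIs in 88 endothelial-like cells of HFHF-old 1 and 10 UMIs in 4 endothelial-like cells of young 2.

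**Figure D5:**
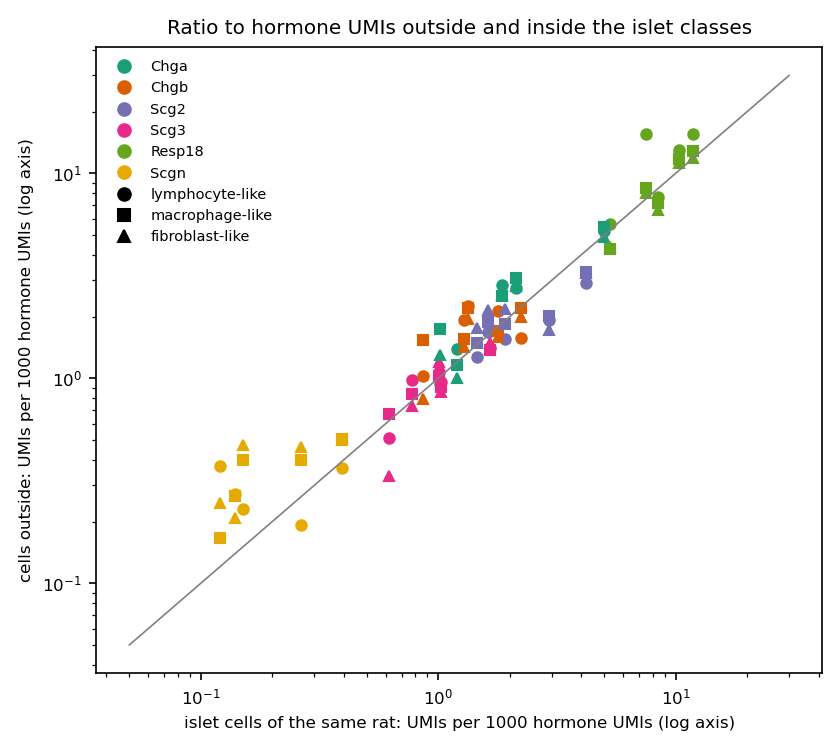
UMIs of each gene per 1000 hormone UMIs in lymphocyte-like, macrophage-like and fibroblast-like cells (vertical, log axis) against the same ratio in all islet cells of the same rat (horizontal, log axis), 5 rats, colours for genes and shapes for classes, with barcodes of 20 or more UMIs of the 6 genes left out; the line marks equal ratios. Points follow the line over the range from Scgn to Resp18, with Scgn above it in most classes.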

How the data were processed

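Per the file headers and the submitters' processing notes, the deposited matrices hold raw UMI counts per gene and cell made by the authors with Cell Ranger (header version 5.0.0) on build Rnor_6.0; the counts were not normalised. Cells with at least 200 genes and at most 25% mitochondrial UMIs were kept, and the top 1% by gene number was left out. That 1% was taken over all 6 libraries together and fell unevenly on them. With it HFHF-old 1 kept 272 of 375 beta and 61 of 79 PP cells. In young 2, 3105 of 3119 beta and 432 of 446 PP cells were kept. No doublet caller was run, so mixed barcodes can remain. Islet classes came from hormone UMIs, and the other classes from marker genes.

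Counts were summed per rat and class with at least 10 cells. Sums were tested with edgeR 4.0.16 (quasi-likelihood, TMM, R 4.3.3) over all genes, with the rat as a block between types, and with DESeq2 1.42.0 as an alternative. Scripts were tested on simulated data. The 6 genes and the lists were chosen with earlier results of these data known. Named genes of the 30-gene list are up to 2 called in each direction with the largest change per comparison. Where only 1 rat of a group had enough cells, it was assumed to vary like the others. With 1 or 2 rats in a group, p-values rest on few animals. Alternatives covered hormone limits, purity, depth, free RNA, normalisation, the blocks and each rat left out. The columns used were all of this series. Some marker genes are not reported here.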

Additional observations from a re-analysis of the deposited data

How the results depend on the processing

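Of the 36 values between islet cell types, 12 were called, against 3 with free RNA subtracted, 4 with no rat block, 20 with library size alone (added after seeing the data) and 6 to 15 with 1 rat left out, the lowest without young 1, where no delta sum remained. Scgn in PP against beta cells (-0.11) turned to 0.014 at a hormone share of at least 5% and 0.97 with library size alone, and ranged from -0.40 to 0.10 with 1 rat left out (0.04 without old 2, 0.10 without HFHF-old 1). Scgn in alpha against beta cells turned to -0.052 with free RNA subtracted, -0.028 with strict cells and -0.028 with hormone genes also left out of the totals, and ranged from -0.063 (without young 2) to 0.42. Scg2 in alpha against beta cells turned to -0.026 with strict cells and -0.027 with hormone genes also left out. Scgn in delta cells turned to -0.014 against alpha and -0.067 against beta cells with free RNA subtracted, and Scg3 in delta against beta cells to 0.81 with library size alone. Chgb in HFHF-old against old beta cells turned to 0.40 with library size alone. Chgb in old against young rats turned to -0.21 in PP and -0.14 in beta cells with cells holding other markers left out, and in PP cells ranged from -0.18 (without young 1) to 0.71, with -0.03 without old 1. The cause was not tested.

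A replicate block on young and old numbers left 0 of the 36 group values called. The labels do not tie the numbers to a shared batch, and deviations of young 1 and old 1 correlated at 0.19 in alpha, -0.25 in beta and 0.22 in PP cells. All genes called for age in alpha cells went from 3 to 70 under the block. With the numbers of the old rats crossed in every cell type, 0 of the 36 values were called. Over all alternatives, genes called ranged from 834 to 8375 in alpha against beta, 817 to 8442 in PP against beta, 140 to 1475 in PP against alpha, 0 to 615 in delta against alpha, 4 to 3312 in delta against beta and 0 to 519 in delta against PP cells. For diet they ranged up to 140, 48 and 171 and for age up to 149, 515 and 125 in alpha, beta and PP cells. Few delta cells and a single HFHF-old rat limit the precision.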

Other observations

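Some barcodes outside the islet classes held many UMIs of the 6 genes, a pattern noticed after the data had been seen. There were 122 barcodes with 20 or more such UMIs among 66756 cells: 73 in young 1, 27 in young 2, 6 in old 1, 8 in old 2, 7 in HFHF-old 1 and 1 in HFHF-old 2. Their median hormone share was 7.12%, below the limit for an islet cell, and 7 of them had under 1% hormone UMIs.

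One macrophage-like barcode of young 1, with 32412 UMIs and a hormone share of 0.0740%, held 468 Chga and 912 Chgb UMIs together with 19 UMIs of Slc18a1, a vesicular monoamine transporter, and 23 UMIs of macrophage markers. It alone carried 912 of the 1247 Chgb and 468 of the 1316 Chga UMIs of that class in young 1. A lymphocyte-like barcode of old 2 held 540 UMIs of Ghrl, the ghrelin gene, with 98 Resp18, 38 Chga and 38 Scg2 UMIs. In HFHF-old 1, one barcode held 387 Resp18 and 90 Scg2 UMIs, and another 401 Chgb and 82 Chga UMIs with 6 of Slc18a1. Each is a single barcode, and what these cells are was not tested.

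In HFHF-old 2, 379 of 9428 lymphocyte-like cells held the 512 Resp18 UMIs of that class, and 343 of these cells had no hormone UMI. Resp18 stood at 198 UMIs per 1000 hormone UMIs there, against 3.52 in the islet cells of the same rat, which are 6 cells only. The other genes were above the islet ratio there too, with Chga at 14.3 against 0.812 and Chgb at 2.71 against 0.271, and Scgn in fibroblast-like cells at 82.8 against 0.217. Other classes of that library showed high ratios too: 134 in fibroblast-like cells (21 Resp18 UMIs, 16 of 18 positive cells without a hormone UMI), 114 in unnamed cells (50 UMIs, 27 of 29) and 29 UMIs against 5 hormone UMIs in mast-like cells (10 of 11). B-like, macrophage-like, dendritic-like and endothelial-like cells of that library, 75 to 104 cells each, held no Resp18 UMI, which allows up to 2.81 to 4.38 CPM by class (3 counts in each sum).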
